A study of Mus musculus with 19 samples.

Results

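The 10 genes described here belong to the disease-associated microglia programme of the mouse: Trem2, Tyrobp, Apoe, Lpl, Axl, Clec7a, Itgax, Cst7, Spp1 and Gpnmb. Each was taken by its Ensembl ID from a table of depth-normalized gene counts with 49671 genes. All 10 had a row, and all 10 were among the 23973 genes tested, which had a normalized count of at least 10 in at least 3 libraries. RNA had been sequenced from brain homogenate enriched for microglia, with 1 library from each of 19 mice. The groups were 8 HEM mice at 13 months, 4 wild-type (WT) mice at 13 months (numbers 6, 7, 8 and 9), 4 HEM mice at 3 months (numbers 1, 3, 4 and 7) and 3 WT mice at 3 months (numbers 1, 3 and 5), and values of single mice are listed in this order. HEM mice overexpress human wild-type α-synuclein in full length, from a transgene on the X chromosome that the murine Thy-1 promoter drives. WT mice are the controls, and all 4 groups share the B6D2F1/J background. The Thy-1 promoter is commonly used to drive transgenes in neurons, and the enriched homogenate also holds RNA of other brain and blood cells. The labels used here give neither the sex of the mice nor whether the transgenic mice come from 1 founder.

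Disease-associated microglia are a state known from mouse models of amyloid deposition, in which microglia lower their homeostatic genes and raise genes for lipid handling, phagocytosis and lysosomes. TREM2, a receptor for lipids and lipoproteins, signals through its adaptor TYROBP, and in those models much of the programme depends on TREM2. Some of the genes are also made by other cells: Apoe by astrocytes, Itgax by dendritic cells, Cst7 by cytotoxic lymphocytes and Spp1 by bone cells.

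At 13 months, libraries held 63.3 to 95.8 M gene reads in HEM mice and 93.2 to 125 M in WT mice. At 3 months they held 74.7 to 113 M in HEM mice and 83.0 to 107 M in WT mice. Of the 8 HEM libraries at 13 months, numbers 1 and 11 agreed least with their group (mean r of log2 values over tested genes 0.9469 and 0.9561). The rest of that group had 0.9608 to 0.9629. Of the 4 HEM libraries at 3 months number 3 agreed least (0.9668), and the rest had 0.9707 to 0.9746. Results are also given without these 3 libraries, numbers 1 and 11 at 13 months and number 3 at 3 months. No WT library was left out with them. The 10 core microglia markers, among them Csf1r, summed to normalized counts of 665147 to 1517420 in HEM and 926188 to 1448210 in WT mice at 13 months. None of them was at 0 in all libraries. At that age limma called 0 of them (adjusted p under 0.05), against 12.2% of all tested genes. Neutrophil markers summed to 63932 to 549446 in HEM and 37794 to 103346 in WT mice at 13 months, with 10 of 10 called higher in HEM. Monocyte markers summed to 10254 to 58217 in HEM and 4772 to 8512 in WT mice at 13 months, with 4 of 5 called higher. Of all tested genes limma called 4.87% higher and 7.3% lower at that age. Choroid plexus markers summed to 1334350 to 2600750 in HEM and 3346790 to 4004490 in WT mice at 13 months. Here 5 of 5 were called lower in HEM, beside that 7.3% of all tested genes. The part of these cell types in the values below was not tested except in the fits given with them. Those fits had the neutrophil and erythroid markers as a covariate, or were made relative to the core microglia genes. At 13 months the limma fit with the covariate called 0 of all 23973 genes, with 2848 at an unadjusted p under 0.05. Every call made without the covariate was therefore lost there, whatever the gene.

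The 10 genes spanned a wide range of levels in the enriched homogenate. Per kilobase of exon and per M reads, the median over the 19 mice was 2333 for Apoe, 514 for Tyrobp, 89.0 for Trem2, 48.2 for Spp1 and 32.0 for Axl. The lower members were Cst7 at 9.54, Clec7a at 8.82, Itgax at 4.28, Lpl at 2.38 and Gpnmb at 0.398. The ranges over mice did not overlap between Apoe and Tyrobp, between Tyrobp and Trem2, or between Axl and Cst7, and every other pair of neighbours overlapped. The order of the group medians was the same in each of the 4 groups except that Cst7 stood above Clec7a in WT mice at 13 months. Gpnmb had as few as 67 reads in a library, the fewest of the 10.

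**Figure D1:**
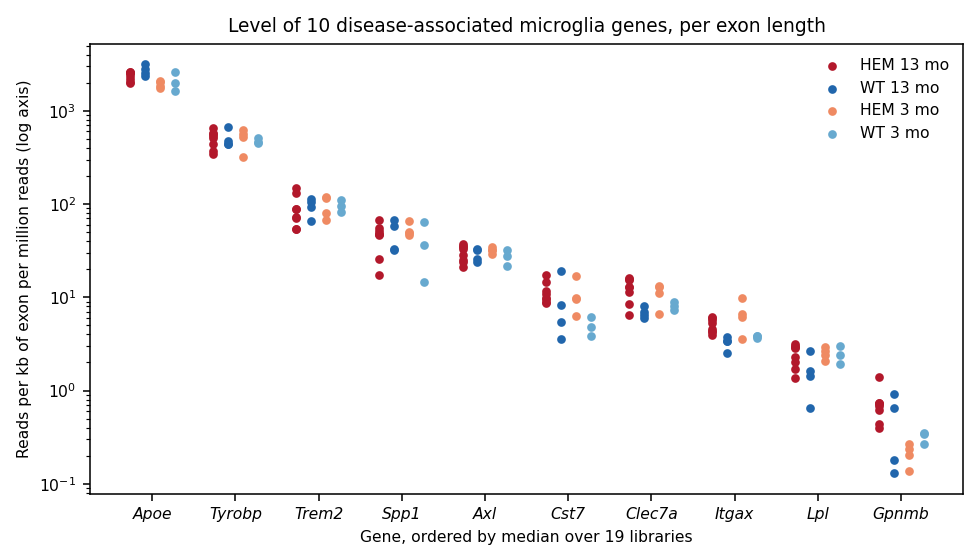
Level of each of the 10 genes, in reads per kilobase of exon per M reads on a log axis, with 1 point per mouse and the groups in colour. Apoe, with a median of 2333, stands above all others, and Gpnmb, with a median of 0.398, is lowest in every group.

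Variation between mice differed widely among the members. The SD of log2(normalized count + 1) over the 19 mice was 0.25 for Axl, 0.27 for Apoe and 0.31 for Tyrobp. It was 0.97 for Gpnmb, 0.70 for Cst7 and 0.63 for Spp1, against a median of 0.45 over the 23973 tested genes. The highest mouse had 10.4 times the lowest mouse's normalized count of Gpnmb, 5.83 times that of Cst7 and 1.79 times that of Axl. In the heatmap of deviations there is no mouse in which all 10 were above their mean.

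**Figure D2:**
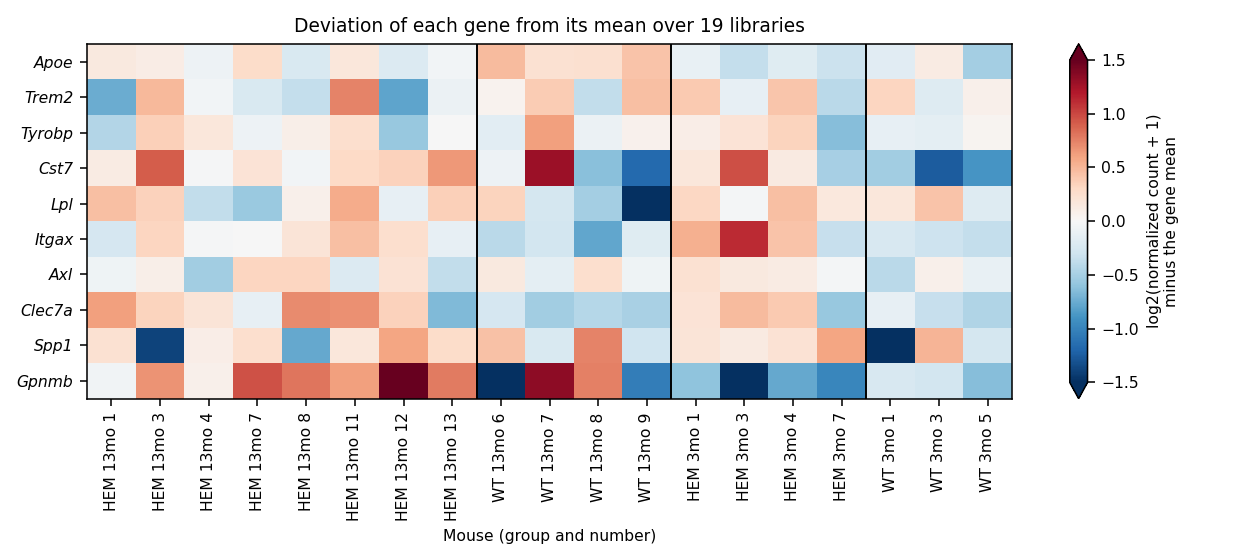
Deviation of each gene in each mouse from that gene's mean over the 19 mice, in log2(normalized count + 1), with rows for genes and columns for mice and lines between the 4 groups. Gpnmb and Cst7 have the strongest colours, the Gpnmb row is red in most HEM mice at 13 months and blue in all HEM mice at 3 months, and the Trem2 and Tyrobp rows are alike.

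In HEM against WT mice at 13 months, 0 of the 10 genes passed limma's test on log2(normalized count + 1) at a Benjamini-Hochberg adjusted p under 0.05, against 12.2% of all tested genes. At an unadjusted p under 0.05 there were 4, namely Clec7a, Itgax and Lpl with higher and Apoe with lower values in HEM mice, against 24.9% of all tested genes. edgeR and DESeq2 on the recovered reads each called 1 member, Clec7a, against 12.1% of all genes by edgeR and 16.8% by DESeq2. The 10 members had a median log2 fold change of 0.19, beside 0.03 over all tested genes, with 5 of 10 above 0. In 0 of the 10 did the groups not overlap, against 6.66% of all tested genes.

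In HEM against WT mice at 3 months, limma called 0 of the 10 genes and 0 of all 23973 (0%), edgeR called 0 of the 10 and 0% of all genes, and DESeq2 called 0 of the 10 and 6 of all genes (0.025%). At an unadjusted p under 0.05 there were 2, Cst7 and Itgax, both with higher values in HEM mice, against 3.85% of all tested genes. The groups did not overlap for 1 of the 10, Cst7, against 5.86% of all tested genes. The median log2 fold change was 0.18 over the members and 0.01 over all tested genes.

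With age, limma called 0 of the 10 genes in 13-month against 3-month HEM mice, beside 1.62% of all tested genes, and 0 of the 10 in 13-month against 3-month WT mice, beside 0.709%. In HEM mice 2 members had an unadjusted p under 0.05, Gpnmb and Apoe, both with higher values at 13 months, against 16.6% of all tested genes. In WT mice Apoe alone did, also with higher values at 13 months, against 15.5%. edgeR called 0 of the 10 in either age comparison, beside 1.55% of all genes in HEM and 0.43% in WT mice. DESeq2 called 1 in each, Gpnmb in HEM mice, beside 5.46% of all genes, and Apoe in WT mice, beside 5.08%. The ages did not overlap for Gpnmb in HEM mice (2.79% of all tested genes) and for Apoe in WT mice (15.3%). Each 13-month group stands in a genotype and in an age comparison, so these comparisons share samples.

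The test of whether the HEM effect differed between 13 and 3 months called 0 of the 10 by limma, 0 by edgeR and 0 by DESeq2, with 0 members at an unadjusted p under 0.05. Over all genes limma called 0%, edgeR called 0%, DESeq2 called 3.91%, and 14.8% had an unadjusted limma p under 0.05. The mean of the HEM effects at both ages was added after the values had been seen. limma called 0 of the 10 and 0% of all genes, edgeR called 0 of the 10 and 0% of all genes, and DESeq2 called 2, Itgax and Clec7a, beside 4.2% of all genes. At an unadjusted p under 0.05 there were 3, Itgax, Clec7a and Cst7, all with higher values in HEM mice, against 14.8% of all tested genes.

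**Figure D3:**
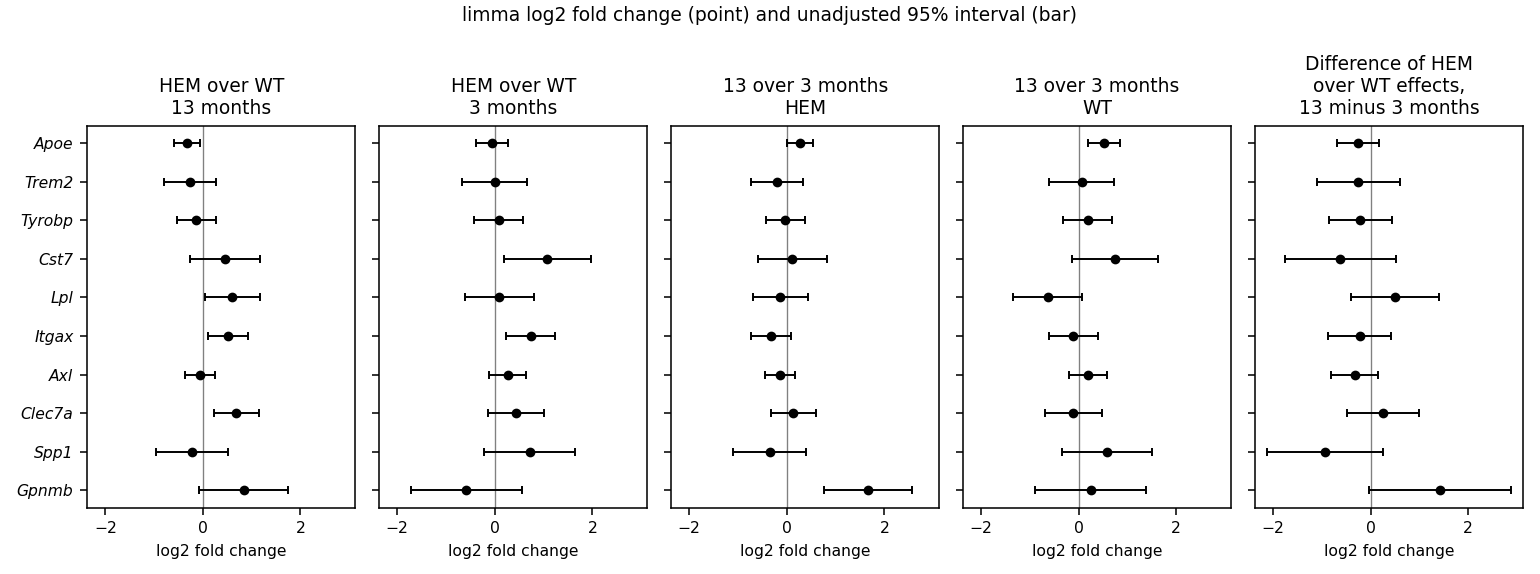
limma log2 fold change (points) with its unadjusted 95% interval (bars) for the 10 genes in 5 panels: HEM over WT at 13 and at 3 months, 13 over 3 months in HEM and in WT mice, and the difference between the HEM effects at the 2 ages. For HEM over WT at 13 months the whole bars of Clec7a (0.68), Lpl (0.60) and Itgax (0.51) lie to the right of 0. That of Apoe (-0.32) lies to the left. At 3 months those of Cst7 (1.08) and Itgax (0.73) lie to the right. Gpnmb has the longest bars.

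Trem2 (ENSMUSG00000023992, chr17:48346401-48354147, plus strand; positions here and below are mm10, GENCODE M21) encodes the lipid-sensing receptor at the head of the programme. Its normalized count ranged from 22150.4 to 64212 with a median of 34428 in the 8 HEM mice at 13 months, and was 39576, 49837, 29648 and 52416 in the WT mice at 13 months. At 3 months it was 50153, 35028, 51183 and 28993 in the HEM mice and 47869.9, 33599.9 and 40284 in the WT mice. The highest and the lowest Trem2 values of all 19 mice were both in HEM mice at 13 months, numbers 11 and 12, and the groups overlapped at both ages. The HEM over WT log2 fold change was -0.25 ± 0.25 (SE) at 13 months, with a 95% interval of -0.79 to 0.28 and a limma adjusted p of 0.614. It was 0.00 ± 0.32 at 3 months, interval -0.66 to 0.67, adjusted p = 1.0 by limma. The sign of these small values moved with the setting: with the neutrophil and erythroid covariate they were 0.28 at 13 months and -0.17 at 3 months.

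Tyrobp (ENSMUSG00000030579, chr7:30413760-30417585, plus strand) encodes the membrane adaptor through which TREM2 signals. The 8 HEM mice at 13 months had normalized counts of 19147 to 36288 (median 29208), and the WT mice of that age had 25430.5, 43393, 26653 and 29706. Counts at 3 months were 30471, 32817, 35688 and 18258 in HEM and 26122, 25656 and 29141 in WT mice. As for Trem2, the groups overlapped at both ages, and HEM mouse 12 at 13 months and HEM mouse 7 at 3 months were lowest. Between HEM and WT mice the log2 fold change was -0.14 ± 0.19 at 13 months and 0.08 ± 0.24 at 3 months (limma adjusted p 0.748 and 1.0), with intervals of -0.54 to 0.27 and -0.42 to 0.58. Receptor and adaptor were the most alike of the 45 pairs of members, with a root mean square difference of 0.28 between their log2 values, each centred on its own mean over the 19 mice. The 2 HEM mice at 13 months with the least Trem2, numbers 12 and 1, also had the smallest sums of the core microglia markers, 665147 and 693963. Relative to the core microglia genes, the 13-month log2 fold change was -0.08 for Trem2 and 0.04 for Tyrobp (limma adjusted p 0.903 and 0.965). In bulk samples such as these, fewer cells of a type and less RNA per cell cannot be told apart. Beyond that fit, the part of microglial content in these values was not tested.

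**Figure D4:**
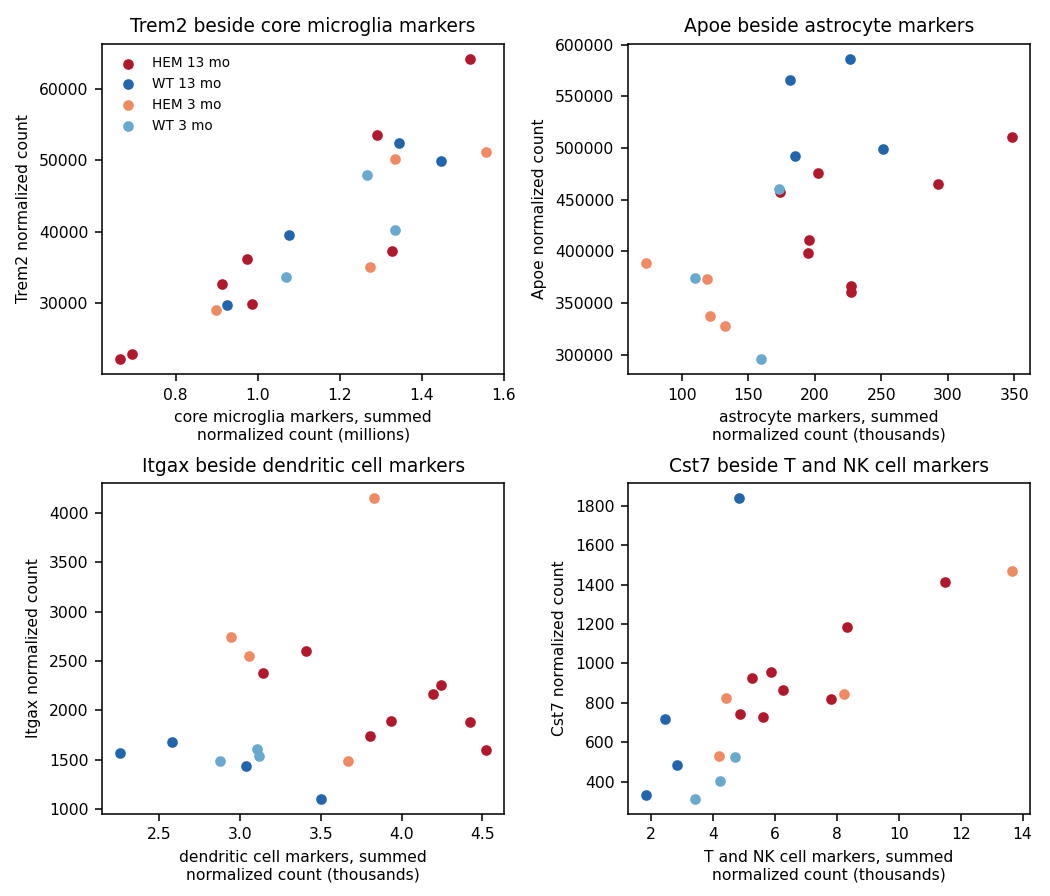
Normalized count of 4 genes in each mouse (vertical axes) against the summed normalized count of a marker list (horizontal axes), with groups in colour: Trem2 beside core microglia markers, Apoe beside astrocyte markers, Itgax beside dendritic cell markers and Cst7 beside T and NK cell markers. Trem2 is low where core markers are low, and HEM mouse 3 at 3 months is highest for Itgax and for the T and NK cell sum (13654).

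Of 16 genes of TREM2 and TYROBP signalling, such as Syk and Plcg2, limma called 1 in HEM against WT mice at 13 months: Hcst, which encodes the related adaptor DAP10, rose by 0.81 ± 0.25, adjusted p = 0.0418, at 763 ± 263 in HEM and 421 ± 103 in WT mice (SD, n = 8 and 4), against 4.87% of all tested genes called higher. Its limma adjusted p was 0.08 without the 3 libraries that stood apart, 0.0659 in the 13-month groups alone and 0.0629 with no filter on low values, and it was called in 8 of the 19 fits that each left out 1 mouse. The list's median log2 fold change was 0.11, beside 0.03 over all tested genes. Of 7 other receptors that couple to TYROBP, 4 rose at 13 months and 0 fell, beside the same share of all tested genes called higher and 7.3% called lower. These were Trem1 (2.57 ± 0.46, adjusted p = 0.00255), Trem3 (1.88 ± 0.41, adjusted p = 0.00596), Cd300lb (1.21 ± 0.31, adjusted p = 0.0162) and Sirpb1a (1.28 ± 0.40, adjusted p = 0.0456), receptors known from myeloid cells of the blood. Sirpb1a was called in 5 of the 19 fits that left out 1 mouse, and its limma adjusted p was 0.0522 without the libraries that stood apart, 0.0742 in the 13-month groups alone and 0.0668 with no filter on low values. Cd300lb lost its call without WT mouse 9. With the neutrophil and erythroid markers as a covariate the log2 fold changes were 1.03 for Trem1, 0.04 for Trem3, 0.07 for Cd300lb and 0.34 for Sirpb1a. Trem2 itself, in the same fit, was at 0.28.

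Apoe (ENSMUSG00000002985, chr7:19696109-19699188, minus strand) encodes the lipid carrier apolipoprotein E and was the most abundant member. Normalized counts of 360777 to 511070, with a median of 433894, were found in the 8 HEM mice at 13 months, and of 586292, 492009, 499039 and 565488 in the WT mice at 13 months. The 3-month values were 388656, 327698, 372938 and 337435 in HEM and 374615, 460620 and 295803 in WT mice. At 13 months 7 of the 8 HEM mice lay below the lowest WT mouse, while at 3 months the groups overlapped. HEM over WT, the log2 fold change was -0.32 ± 0.13 at 13 months, 0.800 times (95% interval 0.666 to 0.962) the WT level, with a limma adjusted p of 0.11, so it did not pass. With the neutrophil and erythroid covariate it was -0.15 (limma adjusted p = 0.832). The 3-month value was -0.06 ± 0.16 (interval -0.39 to 0.27, limma adjusted p = 1.0).

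With age, every 13-month WT mouse had more Apoe than every 3-month WT mouse. Of all tested genes 15.3% did not overlap between these groups, in either direction. The 13 over 3 months log2 fold change was 0.53 ± 0.16 in WT mice (limma adjusted p = 0.102, DESeq2 adjusted p = 0.0229) and 0.27 ± 0.13 in HEM mice (limma adjusted p = 0.3). The difference of the HEM effects between the ages was -0.26 ± 0.20 (limma adjusted p = 0.609). Markers of astrocytes, which make much of the brain's Apoe, summed to 173665 to 348197 in HEM and 181039 to 250996 in WT mice at 13 months. They summed to 73282 to 132759 in HEM and 109751 to 173410 in WT mice at 3 months, below every 13-month mouse in both genotypes, and their part in the age values of Apoe was not tested.

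Lpl (ENSMUSG00000015568, chr8:68880491-68907448, plus strand) encodes lipoprotein lipase, which releases fatty acids from triglyceride-rich lipoproteins. In the 8 HEM mice at 13 months the normalized counts lay between 1319 and 2868 (median 2260.2), and in the WT mice at 13 months they were 2445, 1628, 1373 and 644. In the 3-month groups they were 2421, 1908, 2670.1 and 2172 in HEM and 2183, 2628 and 1697 in WT mice. The 13-month groups overlapped, with 4 of 8 HEM mice above the highest WT mouse and WT mouse 9 lowest of all. For HEM over WT at 13 months the log2 fold change was 0.60 ± 0.27, 1.51 times (95% interval 1.02 to 2.24) the WT level, with a limma adjusted p of 0.169. Over the 19 fits that each left out 1 mouse it ran from 0.24 to 0.88. limma called it in 1 of these, without WT mouse 6 (0.88, adjusted p = 0.0363). It was 0.50 by edgeR (adjusted p = 0.267) and 0.35 with the neutrophil and erythroid covariate (limma adjusted p = 0.824). The 13 over 3 months log2 fold change in WT mice was -0.64 ± 0.34 (limma adjusted p = 0.376), and in HEM mice -0.13 ± 0.27 (limma adjusted p = 0.851).

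Of 18 tested genes of lipoprotein and lipid handling, among them Abca1, limma called 0 in HEM against WT mice at 13 months. Of all tested genes 12.2% were called. The list's median log2 fold change was -0.08. In 13-month against 3-month HEM mice 1 fell, Lipa, the lysosomal acid lipase (-0.55 ± 0.12, adjusted p = 0.0303), at 6936 ± 1094 at 13 months and 10120 ± 1423 at 3 months (SD, n = 8 and 4), against 1.62% of all tested genes called in either direction. Its limma adjusted p was 0.0745 in the HEM groups alone, and the call was lost without HEM mouse 13 at 13 months or HEM mouse 1, 4 or 7 at 3 months.

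Clec7a (ENSMUSG00000079293, chr6:129461591-129472779, minus strand) encodes dectin-1, a lectin receptor for β-glucans on innate immune cells; the annotation used here types it as a polymorphic pseudogene. Its normalized count ranged from 1403 to 3639 with a median of 2814 in the 8 HEM mice at 13 months, and was 1870.2, 1549, 1659 and 1587 in the WT mice at 13 months. At 3 months it was 2571, 3085, 2915 and 1501 in the HEM mice and 2038, 1754 and 1621 in the WT mice. At 13 months 7 of 8 HEM mice stood above the highest WT mouse and HEM mouse 13 below the lowest. At 3 months 3 of 4 HEM mice stood above the highest WT mouse and HEM mouse 7 below the lowest. Of the 12 HEM mice of both ages, 10 exceeded the highest of all 7 WT mice. The share of all tested genes that reach such a count was not computed.

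The HEM over WT log2 fold change of Clec7a at 13 months was 0.68 ± 0.22, 1.60 times (95% interval 1.16 to 2.21) the WT level, with a limma adjusted p of 0.0512. edgeR called it (0.74, adjusted p = 0.0334), as did DESeq2 (0.74, adjusted p = 0.00888). limma called it without HEM mouse 13 at 13 months (0.81, adjusted p = 0.00892), and also without HEM mouse 7 of either age. Without the 3 libraries that stood apart the value was 0.55 (limma adjusted p = 0.132), with the neutrophil and erythroid covariate 0.61 (limma adjusted p = 0.513), and relative to the core microglia genes 0.85 (limma adjusted p = 0.15). Its 3-month value was 0.43 ± 0.28 (limma adjusted p = 1.0), and the mean of both ages 0.56 ± 0.18 (limma adjusted p = 0.143). The difference between the ages was 0.25 ± 0.35, with an interval of -0.49 to 0.99.

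Itgax (ENSMUSG00000030789, chr7:128129547-128150657, plus strand) encodes CD11c, an integrin α chain that pairs with the β2 chain to bind complement fragments. The 8 HEM mice at 13 months had normalized counts of 1599.7 to 2604 (median 2030.2), and the WT mice of that age had 1433, 1571, 1107 and 1680.5. Counts at 3 months were 2741, 4146, 2555 and 1491 in HEM and 1605, 1533 and 1487 in WT mice. At 13 months 7 of 8 HEM mice stood above the highest WT mouse, with HEM mouse 1 among the WT values. At 3 months 3 of 4 stood above the highest WT mouse, HEM mouse 3 was highest of all 19, and HEM mouse 7 lay among the WT values. Of the 12 HEM mice of both ages, 10 exceeded the highest of the 7 WT mice, a count that was not made over all tested genes.

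The HEM over WT log2 fold change of Itgax was 0.51 ± 0.19 at 13 months, 1.43 times (95% interval 1.08 to 1.89) the WT level, with a limma adjusted p of 0.0951. A fit of the 13-month groups alone called it (limma adjusted p = 0.0419). So did limma without HEM mouse 3 or without HEM mouse 7 at 3 months, with the value unchanged at 0.51. It was not called by edgeR (adjusted p = 0.0961), DESeq2 (adjusted p = 0.059) or limma without the libraries that stood apart (adjusted p = 0.0526). With the neutrophil and erythroid covariate it was 0.47 (limma adjusted p = 0.59), and relative to the core microglia genes 0.68 (limma adjusted p = 0.213). In the 3-month groups the value was 0.73 ± 0.24, 1.66 times (95% interval 1.17 to 2.37) the WT level (limma adjusted p = 1.0), and 0.50 without the libraries that stood apart, HEM mouse 3 among them. The mean of both ages was 0.62 ± 0.15 (limma adjusted p = 0.0959, DESeq2 adjusted p = 0.00569). The difference between the ages was -0.22 ± 0.31, with an interval of -0.87 to 0.43. Markers of dendritic cells, for which Itgax is also known, summed to 3141 to 4521 in HEM and 2262 to 3499 in WT mice at 13 months. At that age 3 of 5 were called higher in HEM, against 4.87% of all tested genes. At 3 months the sums were 2946 to 3829 in HEM and 2880.3 to 3121 in WT mice. The part of dendritic cells in the Itgax values was not tested.

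Itgax and Clec7a were the third most alike pair of members (root mean square difference 0.35 in centred log2 values), after Trem2 with Tyrobp and Apoe with Axl (0.34). The promoter windows of Clec7a and Itgax are shown because for them most HEM mice stood above the highest WT mouse at each age. That of Gpnmb is shown because its values differed most with age in HEM mice. All these windows are the 250 bases before the RefSeq start (GRCm38.p6, the build of mm10), read 5′ to 3′ along the gene. In the order printed, they lie at chr6:129472780-129473029 on the minus strand, chr7:128129300-128129549 on the plus strand and chr6:49036268-49036517 on the plus strand. Capitals mark matches on either strand to GAGGAA, the core of the PU box that the myeloid factor PU.1 is known to bind.
Clec7a: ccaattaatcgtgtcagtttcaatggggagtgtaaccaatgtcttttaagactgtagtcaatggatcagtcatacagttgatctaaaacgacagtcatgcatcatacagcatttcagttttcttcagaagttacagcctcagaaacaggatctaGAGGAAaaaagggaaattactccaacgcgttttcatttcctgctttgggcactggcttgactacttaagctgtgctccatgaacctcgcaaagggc
Itgax: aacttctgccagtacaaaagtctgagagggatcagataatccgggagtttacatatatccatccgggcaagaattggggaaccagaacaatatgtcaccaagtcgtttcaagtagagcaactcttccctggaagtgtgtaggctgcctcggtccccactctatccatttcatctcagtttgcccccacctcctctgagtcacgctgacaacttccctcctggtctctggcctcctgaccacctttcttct
Gpnmb: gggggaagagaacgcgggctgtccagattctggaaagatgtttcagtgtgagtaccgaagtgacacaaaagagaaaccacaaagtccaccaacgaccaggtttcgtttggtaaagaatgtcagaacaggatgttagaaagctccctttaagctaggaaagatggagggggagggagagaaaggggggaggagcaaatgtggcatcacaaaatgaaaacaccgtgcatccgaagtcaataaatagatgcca
The Clec7a window holds 1 match, whose first base lies at -96 from the start, and the Itgax and Gpnmb windows hold none. Among all 32851 such windows from RefSeq, 23.3% hold a match. Of the 12 windows that 8 of the members have there, 7 hold one, and they belong to Spp1, Clec7a, Apoe, Axl and Trem2. The E-box letters CATGTG or CACGTG, searched in the same way on both strands, are in 17.6% of all windows and in 0 of the 12 windows of these 8 members. A match is a description of letters and not of a bound site.

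**Figure D5:**
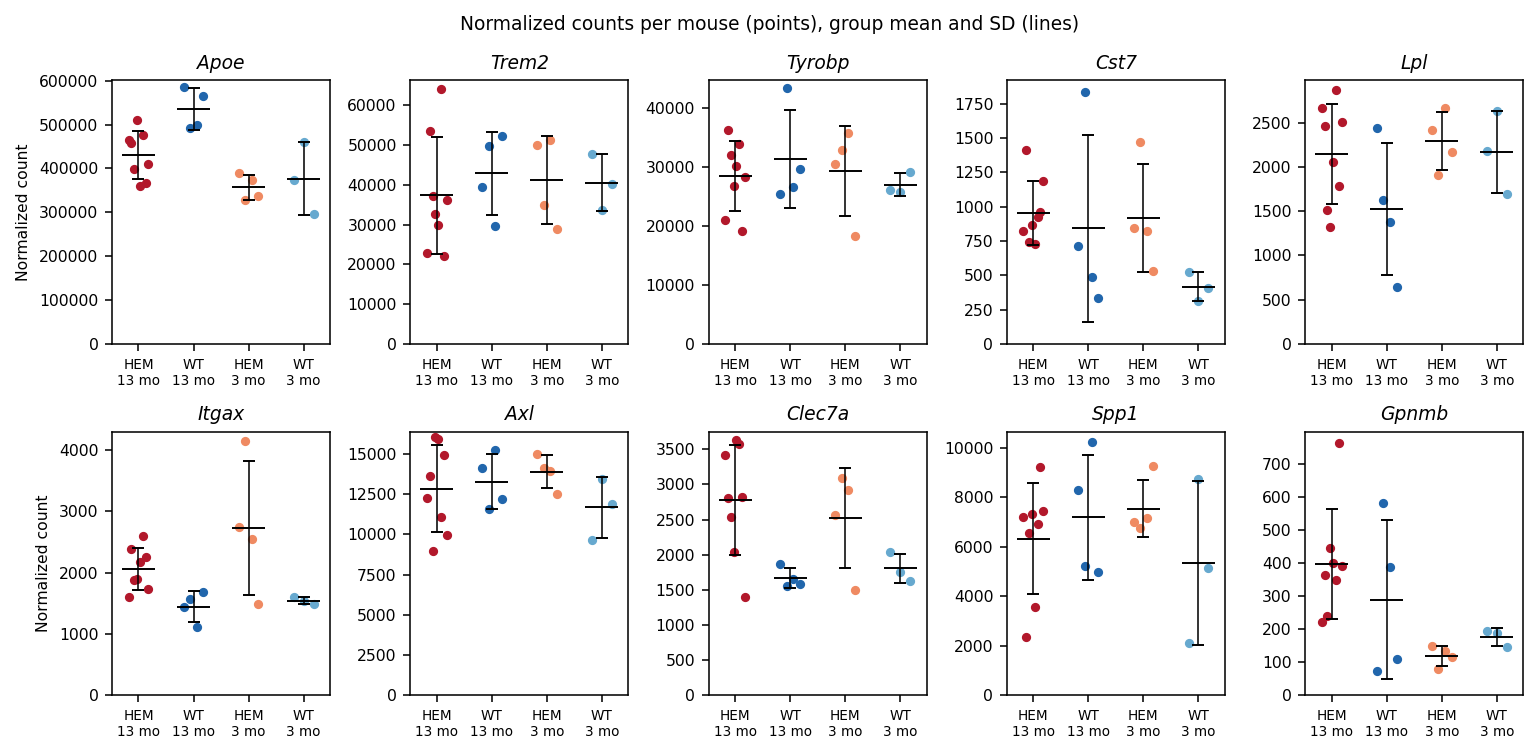
Normalized count of each of the 10 genes in every mouse, 1 panel per gene on its own linear axis, with HEM left of WT at each age, points for mice and bars for group means with SD. For Clec7a and Itgax 10 of 12 HEM mice lie above all WT mice, a count not made over all tested genes. For Cst7 the 3-month groups do not overlap, against 5.86% of all tested genes. For Gpnmb the HEM mice at 13 months lie above those at 3 months, and 2.79% of all tested genes do not overlap there.

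Axl (ENSMUSG00000002602, chr7:25757273-25788705, minus strand) encodes a TAM receptor tyrosine kinase that takes part in the clearance of apoptotic cells. Normalized counts of 8947 to 16012, with a median of 12929.9, were found in the 8 HEM mice at 13 months, and of 14104, 11552, 15207 and 12195 in the WT mice at 13 months. The 3-month values were 14973, 14131, 13920.3 and 12514 in HEM and 9663, 13456 and 11879.6 in WT mice. It varied least of the 10 genes, and HEM mouse 4 at 13 months was lowest. The groups overlapped at both ages, although at 3 months 3 of 4 HEM mice stood above the highest WT mouse. A log2 fold change of HEM over WT of -0.07 ± 0.15 was found at 13 months (interval -0.37 to 0.24, limma adjusted p = 0.846) and of 0.26 ± 0.18 at 3 months (interval -0.12 to 0.64, limma adjusted p = 1.0). Of the 4 other TAM receptors and ligands limma called 1 at 13 months, against 7.3% of all tested genes called lower: Gas6, the ligand of AXL, fell (-0.56 ± 0.13, adjusted p = 0.00929), at 32860 ± 3907 in HEM and 48180 ± 3382 in WT mice (SD, n = 8 and 4). Its log2 fold change with the neutrophil and erythroid covariate was -0.35.

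Partners of the other surface receptors gave single calls, against 4.87% of all tested genes called higher at 13 months. Of 3 dectin-1 signalling genes 1 rose at 13 months, Malt1, a paracaspase downstream of CARD9 (0.42 ± 0.09, adjusted p = 0.00457). Of the 4 other β2 integrin genes 1 rose, Itgal, the α chain of LFA-1 on leukocytes (1.03 ± 0.22, adjusted p = 0.00583), and with the neutrophil and erythroid covariate its log2 fold change was 0.81, and that of Malt1 0.29.

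Cst7 (ENSMUSG00000068129, chr2:150570415-150578944, plus strand) encodes cystatin F, an inhibitor of lysosomal cysteine proteases. In the 8 HEM mice at 13 months the normalized counts lay between 729 and 1412 (median 897), and in the WT mice at 13 months they were 717, 1837, 486 and 335. In the 3-month groups they were 848, 1470.0, 825 and 532 in HEM and 525, 315 and 406 in WT mice. At 3 months all 4 HEM mice stood above all 3 WT mice, and 5.86% of all tested genes did not overlap there. At 13 months the groups overlapped, since WT mouse 7 was highest of all 19 mice while the other 3 WT mice lay below every HEM mouse. At 3 months the log2 fold change of HEM over WT was 1.08 ± 0.42, 2.11 times (95% interval 1.14 to 3.91) the WT level (limma adjusted p = 1.0; 0.82 without the libraries that stood apart). It was 0.45 ± 0.34 at 13 months (limma adjusted p = 0.467), with 0.11 to 0.93 over the fits that left out 1 mouse, and the highest of these came without WT mouse 7.

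Markers of T and NK cells, which also make Cst7, summed to 4880.1 to 11508 in HEM and 1851 to 4839 in WT mice at 13 months. At that age 3 of 7 were called higher by limma, against 4.87% of all tested genes. At 3 months the marker sums were 4213 to 13654 in HEM and 3432 to 4713 in WT mice, with HEM mouse 3 highest. Cst7 was also highest in that mouse among the 3-month mice (1470.0). The 2 highest values at 13 months were WT mouse 7, whose marker sum was 4839, and HEM mouse 3, at 11508. The part of these cells in the Cst7 values was not tested.

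Spp1 (ENSMUSG00000029304, chr5:104435118-104441050, plus strand) encodes osteopontin, a secreted glycoprotein that binds integrins and CD44. Gm42793, annotated on the same strand, overlaps 18.75% of its exon bases, so its count is less certain than the others. Its normalized count ranged from 2350.1 to 9247 with a median of 7059 in the 8 HEM mice at 13 months, and was 8292, 5245, 10247 and 4987 in the WT mice at 13 months. At 3 months it was 7014, 6747, 7152 and 9273 in the HEM mice and 2129, 8756 and 5129.9 in the WT mice. The groups overlapped at both ages, and the lowest values were those of WT mouse 1 at 3 months and HEM mouse 3 at 13 months. Its log2 fold change of HEM over WT was -0.23 ± 0.35 at 13 months (interval -0.97 to 0.51, limma adjusted p = 0.773) and 0.71 ± 0.44 at 3 months (interval -0.21 to 1.64, limma adjusted p = 1.0). With the neutrophil and erythroid covariate the 13-month value was -1.06 (limma adjusted p = 0.372). The difference of the HEM effects between the ages was -0.94 ± 0.56 (limma adjusted p = 0.477).

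Of 7 osteopontin receptors 2 rose in HEM against WT mice at 13 months and 0 fell, against 4.87% of all tested genes called higher. These were the integrin chain Itga4 (1.22 ± 0.20, adjusted p = 0.00192) and Cd44 (1.29 ± 0.27, adjusted p = 0.00446). Itga4 was at 5158 ± 1019 in HEM and 2216 ± 469.8 in WT mice (SD, n = 8 and 4). In the fit with the neutrophil and erythroid covariate the log2 fold change was 1.01 for Itga4 and 0.28 for Cd44.

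Gpnmb (ENSMUSG00000029816, chr6:49036546-49070929, plus strand) encodes a transmembrane glycoprotein of endosomes and lysosomes. The 8 HEM mice at 13 months had normalized counts of 221 to 762 (median 379), and the WT mice of that age had 73.5, 582, 388 and 111. Counts at 3 months were 150.2, 78.5, 134 and 116 in HEM and 194, 189 and 147 in WT mice. Every HEM mouse at 13 months stood above every HEM mouse at 3 months, and 2.79% of all tested genes did not overlap there. WT mice at 13 months were split, 2 above all and 2 below all of the WT mice at 3 months. The 13 over 3 months log2 fold change in HEM mice was 1.67 ± 0.43, 3.17 times (95% interval 1.69 to 5.96) the 3-month level, with a limma adjusted p of 0.056. It was called by DESeq2 (adjusted p = 0.00299) and by limma on the HEM groups alone (adjusted p = 0.0337), and not by edgeR (1.73, adjusted p = 0.066). Without the 3 libraries that stood apart it was 1.62 (limma adjusted p = 0.134).

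In WT mice the age difference of Gpnmb was 0.24 ± 0.54 (interval -0.89 to 1.38, limma adjusted p = 0.882). The test of the difference between the 2 genotypes gave 1.42 ± 0.69 (interval -0.03 to 2.88, limma adjusted p = 0.35), so a difference between HEM and WT mice in the age effect was not shown. The HEM over WT log2 fold change was 0.84 ± 0.43 at 13 months and -0.59 ± 0.54 at 3 months (limma adjusted p 0.248 and 1.0). Markers of melanocytes, a cell type that also makes Gpnmb, summed to 221 to 988 (median 348) in HEM mice at 13 months. In HEM mice at 3 months they summed to 463 to 558 (median 496). Osteoblast markers summed to 1738 to 3907 at 13 months and 1251 to 1974 at 3 months in HEM mice. In WT mice the osteoblast sums were 1883 to 2608 at 13 months and 1614 to 1800 at 3 months. Osteoclast markers summed to 1391 to 2198 (median 1748) at 13 months and 1481 to 2481 (median 1989) at 3 months in HEM mice. In WT mice the osteoclast sums were 1374 to 1632 at 13 months and 1594 to 2115 at 3 months. In WT mice at 13 months the melanocyte sum was 2151 in mouse 7, the highest of all 19 and also the highest WT mouse for Gpnmb. It was 427 to 437 in the other 3, and 303 to 449 in WT mice at 3 months. HEM mouse 12 at 13 months, highest of all 19 for Gpnmb (762), had a melanocyte sum of 324. HEM mouse 7 at 13 months, with the highest melanocyte sum of the HEM mice (988), had a Gpnmb count of 446. The part of these cells in the Gpnmb values was not tested.

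Genes of the same programme outside the 10 moved in both directions. Of 24 other tested disease-associated microglia genes limma called 1 higher and 4 lower in HEM against WT mice at 13 months, against 4.87% of all tested genes higher and 7.3% lower, with a median log2 fold change of -0.23 beside 0.03 over all tested genes. The 4 that fell were the tetraspanin Cd63 (-0.43 ± 0.10, adjusted p = 0.00772), the secreted glycoprotein Lgals3bp (-0.40 ± 0.09, adjusted p = 0.00904), the lysosomal cholesterol carrier Npc2 (-0.37 ± 0.10, adjusted p = 0.0242) and the protease inhibitor Timp2 (-0.42 ± 0.12, adjusted p = 0.026). Lyz2, the lysozyme of myeloid cells including neutrophils, rose by 0.91 ± 0.26, adjusted p = 0.0279, and was named after its values had been seen. The fit with the neutrophil and erythroid covariate gave log2 fold changes of -0.35 for Cd63, -0.34 for Lgals3bp, -0.11 for Npc2, -0.15 for Timp2 and -0.05 for Lyz2. In the 13-month groups alone Npc2 and Timp2 had limma adjusted p = 0.0522 and adjusted p = 0.0635. Left-out mice that ended a call were WT mice 7 and 9 for Npc2, WT mice 7, 8 and 9 for Timp2 and WT mice 8 and 9 for Lyz2, all at 13 months, and Lyz2 had limma adjusted p = 0.056 with no filter on low values. The call of Cd63 and Timp2 in an earlier analysis of these samples was known when the list was made. In 13-month against 3-month HEM mice 1 of the 24 fell, Lgals3bp (-0.71 ± 0.09, adjusted p = 0.00308), against 1.62% of all tested genes, and in the other comparisons limma called 0 of the 24.

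Of 10 homeostatic microglia genes 2 fell in HEM against WT mice at 13 months and 0 rose, against 7.3% of all tested genes called lower, with a median log2 fold change of -0.24. They were Slc2a5, a fructose transporter (-1.03 ± 0.33, adjusted p = 0.0488), and Sparc, a matrix protein (-0.40 ± 0.13, adjusted p = 0.044). Of the 19 fits that left out 1 mouse, 5 called Slc2a5 and 7 called Sparc. In the 13-month groups alone they had limma adjusted p = 0.0713 and adjusted p = 0.0636. The adjusted p of Slc2a5 was 0.0975 with no filter on low values, and that of Sparc was 0.0541 by edgeR and 0.0788 without the libraries that stood apart. Of 18 regulators of the microglial state 2 rose, the transcription factors Tfec (1.64 ± 0.42, adjusted p = 0.0162) and Bhlhe40 (0.49 ± 0.15, adjusted p = 0.0319), against 4.87% of all tested genes called higher. Bhlhe40 was called in 13 of the 19 fits that left out 1 mouse, and Tfec in all but that without WT mouse 9. With the neutrophil and erythroid covariate the log2 fold changes were -0.90 for Slc2a5, -0.13 for Sparc, -0.13 for Tfec and 0.33 for Bhlhe40. Core microglia genes, 10 in all, had 0 called by limma at 13 months, against 12.2% of all tested genes. Their median was -0.24, close to that of the homeostatic list. At 3 months, with age in WT mice and for the difference between the ages, limma called 0 genes of every list.

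The 4 most variable members, those whose SD over the 19 mice was at least 0.5, were compared in their pattern with other tested genes. The measure was the root mean square difference of centred log2 values. The 17174 genes compared had no limit on their SD and left out predicted, clone, Rik, microRNA and mitochondrial genome names. For Cst7 the most alike genes were Rpl7a-ps5 (0.43), Jaml (0.43) and Cd52 (0.44). For Gpnmb they were Rpgrip1 (0.68), H2-Ab1 (0.71) and Mbnl3 (0.72), at differences of a size with most of Gpnmb's own SD of 0.97. For Lpl they were Pxdc1 (0.34), Lin9 (0.34) and Pde4b (0.35), and for Spp1 Zfp605 (0.46), Zfp72 (0.47) and Pgm2 (0.47). Rpl7a-ps5 is a ribosomal protein pseudogene that can share reads with its parent gene, so its values are uncertain. No other member was among these genes.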

How the data were processed

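RNA libraries were made with the NEBNext Ultra II RNA kit, per the labels' protocols. The submitters' processing notes name the tools Trimmomatic, HISAT2, featureCounts and DESeq2 and the build mm10; their versions, the annotation and the strand setting are not given in the sources used here. The deposited values are a signal: in each library the authors' gene counts stand divided by a size factor. The values themselves show this, since 100% of them are whole multiples of their library's step (tolerance 0.01). The reads recovered in this way gave the depth and went into edgeR and DESeq2.

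Symbols, positions and exon lengths came from GENCODE M21. limma-trend (limma 3.58.1, R 4.3.3, robust) was fitted to log2(normalized count + 1) with the 4 groups in 1 model, over the 23973 genes that reached 10 in 3 or more libraries. Fold changes are on this scale, on which those of genes with low counts come out too small. Tests were two-sided, with Benjamini-Hochberg adjustment over all tested genes, and called means an adjusted p under 0.05. The 95% intervals are unadjusted. edgeR 4.0.16 (quasi-likelihood, TMM) and DESeq2 1.42.0 on recovered reads were alternatives, as were other scalings, filters, pseudocounts, samples and covariates. The method was tested on simulated data.

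The 10 members, the 11 pathway and the 17 marker lists were chosen with earlier results of these data known. Of 206 list names 2 had no row. A check of the genotype labels by expression is not reported here. From each pathway list the called genes are named, at most the 4 with the smallest p, plus Lyz2, which was named after its values had been seen. Libraries are named by group and by the mouse number in the title. Each is a separate mouse, so numbers shared between groups do not pair samples.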

Additional observations from a re-analysis of the deposited data

Results flagged for a closer look

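In the 30 sets of values given by 10 genes in the 3 groups of 4 to 8 mice, 2 held a mouse far from the rest of its group, and chance alone sets apart about 1 in 20. Spp1 in HEM mouse 7 at 3 months had a normalized count of 9273, and its gap to the next of the 4 mice was 0.84 of the group's whole range. This mouse had the lowest values of Trem2, Tyrobp, Itgax, Clec7a, Cst7 and Axl in its group. It also had the group's smallest sum of core microglia markers (898395). Gpnmb in HEM mouse 12 at 13 months had a normalized count of 762, and its gap to the next of the 8 mice was 0.584 of the range. This mouse had the lowest values of Trem2 and Tyrobp in its group.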

How the results depend on the processing

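Against the 0 members called by limma, at 13 months HEM over WT 1 was called by edgeR, by DESeq2 and with a filter at 50 (Clec7a each) and 1 in the compared groups alone (Itgax). With age in HEM mice 1 was called by DESeq2, with a filter at 50 and in the compared groups alone (Gpnmb each), and in WT mice 1 by DESeq2 (Apoe). For the mean of both ages 2 were called by DESeq2 (Itgax and Clec7a). Leaving out 1 mouse gave 0 to 2 called members at 13 months (Clec7a without HEM mouse 7 or 13 at 13 months, Lpl without WT mouse 6, Itgax without HEM mouse 3 at 3 months, Itgax and Clec7a without HEM mouse 7 at 3 months). It gave 0 to 1 with age in HEM mice (Gpnmb without HEM mouse 1 or WT mouse 6 or 7 at 13 months) and 0 to 1 for the mean of both ages (Itgax without HEM mouse 7 at 3 months). Of all genes, 17.1% were called at 13 months with a filter at 50 and 9.61% in the compared groups alone, and 2.68% and 0.964% with age in HEM mice. The fits without 1 mouse called 7.12 to 13.7% at 13 months, 0.259 to 2.7% with age in HEM mice and 0 to 1.07% for the mean of both ages. edgeR and DESeq2 change the test and use recovered reads, edgeR also the scaling, while each other alternative changed 1 choice. The mean of both ages was added after the data had been seen.

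Of the members' log2 fold changes over all comparisons and alternatives, 1759 kept direction and side of the threshold, 20 passed it newly and 61 changed sign, none of them past the threshold under either setting. With the mouse number as a replicate block (5 residual degrees of freedom), log2 fold changes of the other sign were Cst7 at -0.50, Axl at 0.15 and Gpnmb at -0.34 for HEM over WT at 13 months, Tyrobp at 0.080 with age in HEM mice, Itgax at 0.16 and Clec7a at 0.098 with age in WT mice, Gpnmb at -0.59 for the mean of both ages. With the neutrophil and erythroid covariate, log2 fold changes of the other sign were Trem2 at 0.28, Tyrobp at 0.056, Lyz2 at -0.051 and Tfec at -0.13 for HEM over WT at 13 months, Trem2 at -0.17 for HEM over WT at 3 months, Trem2 at 0.20, Tyrobp at 0.11 and Cst7 at -0.016 with age in HEM mice, Trem2 at -0.24 with age in WT mice, Trem2 at 0.45 and Tyrobp at 0.040 for the difference between the ages, Trem2 at 0.054, Tyrobp at 0.036 and Spp1 at -0.041 for the mean of both ages. Relative to the core microglia genes, log2 fold changes of the other sign were Tyrobp at 0.035 and Axl at 0.10 for HEM over WT at 13 months, Trem2 at 0.052, Tyrobp at 0.22, Lpl at 0.12 and Axl at 0.11 with age in HEM mice, Tyrobp at 0.060 for the mean of both ages. Without the 3 libraries that stood apart, log2 fold changes of the other sign were Tyrobp at 0.061 with age in HEM mice, Itgax at 0.0080 for the difference between the ages. With TMM scaling, log2 fold changes of the other sign were Trem2 at -0.0024 for HEM over WT at 3 months. By edgeR, log2 fold changes of the other sign were Gpnmb at -0.048 for the mean of both ages. By DESeq2, log2 fold changes of the other sign were Gpnmb at -0.051 for the mean of both ages. Leaving out 1 mouse turned the sign of some values, with ranges for HEM over WT at 13 months Tyrobp -0.22 to 0.033 and Axl -0.13 to 0.0019, for HEM over WT at 3 months Apoe -0.22 to 0.096, Trem2 -0.13 to 0.16, Tyrobp -0.032 to 0.29 and Lpl -0.074 to 0.24, with age in HEM mice Tyrobp -0.24 to 0.081, Cst7 -0.11 to 0.37 and Clec7a -0.095 to 0.27, with age in WT mice Trem2 -0.070 to 0.22, Itgax -0.18 to 0.016 and Gpnmb -0.25 to 0.74, for the difference between the ages Itgax -0.48 to 0.0082, for the mean of both ages Tyrobp -0.084 to 0.077, Spp1 -0.035 to 0.48 and Gpnmb -0.12 to 0.37. The cause of these turns was not tested.

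The mouse numbers do not pair samples, since each library is a separate mouse. Deviations of same-numbered libraries correlated at 0.11 and 0.13 between HEM and WT mice at 13 months, and at 0.02 and -0.04 at 3 months. Between HEM mice of 13 and of 3 months they correlated at -0.07 to 0.17. Differently numbered libraries were not compared in this way, so the correlations alone cannot decide about pairing. Groups of 3 to 8 mice limit the precision: at 3 months the 95% intervals of the members' log2 fold changes run from -0.39 to 0.27 for Apoe to -1.72 to 0.55 for Gpnmb. Of the named list genes' values 506 kept their call, 143 lost it and 2 changed sign. All 21 calls were lost with the covariate and with the replicate block. At 13 months these fits called 0 of all genes by limma (2848 and 2717 at an unadjusted p under 0.05). Relative to the core microglia genes 18 were lost, in the compared groups alone 7, with no low filter 4, without the 3 libraries 3, by edgeR 1, and under the other alternatives apart from single mice 0.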

Other observations

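The balance between receptor and adaptor, the log2 normalized count of Trem2 minus that of Tyrobp, ran from -0.02 to 0.92 in HEM and 0.15 to 0.82 in WT mice at 13 months. It ran from 0.09 to 0.72 in HEM and 0.39 to 0.87 in WT mice at 3 months, so all 4 groups overlapped. HEM mouse 11 at 13 months, with the most Trem2 of all mice, had the highest balance, and HEM mouse 8 at 13 months the lowest.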
